A study of Rattus norvegicus with 18 samples.

Results

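Transcripts of 10 voltage-gated calcium channel genes were followed in rat brain after maternal exposure to BDE-47 (2,2',4,4'-tetrabromodiphenyl ether), a brominated flame retardant congener. The genes were chosen by symbol in the array annotation, with earlier results of these data known. They encode the pore subunits Cacna1a, Cacna1b, Cacna1c, Cacna1d, Cacna1e and Cacna1g, the alpha2delta subunit Cacna2d1 and the beta subunits Cacnb1, Cacnb3 and Cacnb4. Each had 1 probe, so 10 of 22523 probes on the array, and 10 of 13337 gene symbols, are described here. No filter on low values was applied in the main fits, and all 10 entered each of them. A setting tried later, with only the probes above the median level, leaves out any member below it.

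A voltage-gated calcium channel opens when the membrane depolarizes and lets calcium into the cell. Its alpha1 subunit forms the pore and sets the channel type: P/Q-type and N-type channels trigger transmitter release at synapses, L-type channels couple electrical activity to gene transcription, R-type channels act in dendrites and terminals, and T-type channels open near the resting potential and support burst firing. The alpha2delta and beta subunits are auxiliary, and help the pore subunit reach the cell surface and set its gating.

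Messenger RNA was measured on Illumina rat expression arrays, 1 per female Wistar pup, with 3 pups from 3 litters in each of 6 groups. Dams received caudal injections of vehicle (ethanol, Cremophor EL and water), of 0.002 mg/kg BDE-47, or of 0.2 mg/kg BDE-47. Total brain came from pups aged 10 days, whose dams had had 3 injections. The protocol of the frontal lobe samples gives an age of 41 days and 6 injections, although the series' design text puts both tissues at day 10. The effects of tissue, age and number of injections cannot be told apart. The vehicle groups carried the same solvents as the treated groups, and all groups were of the same strain and sex.

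The deposited signals lie on a log2-like scale and ran from 7.59 to 15.7 in total brain and from 7.45 to 15.7 in frontal lobe. Between 56.2% and 58.9% of the probes of an array were under 8, close to the floor, where a variance-stabilized scale would compress differences. The levels of Cacna1a, Cacna1b and Cacna1e lay near that floor in every group. Array medians were 7.88 to 7.89 in total brain and 7.83 to 7.84 in frontal lobe. Arrays of a tissue correlated across probes at r between 0.981 and 0.998, and no pair of arrays was identical. Of 6 listed cortical markers 3 were measured, and in vehicle pups Slc17a7, the vesicular glutamate transporter of cortical excitatory neurons, was higher in frontal lobe than in total brain by 1.16. Pcp2, a Purkinje cell gene, was lower there (-2.40). One frontal lobe vehicle array, replicate 3, stood apart for the calcium channel genes: all 10 were below their mean over the 9 frontal lobe arrays there, against 1 and 2 of 10 on the other vehicle arrays. On 0.2 mg/kg replicate 1 all 10 were below that mean too. Differences from the frontal lobe vehicle group are given with and without vehicle replicate 3, beside what leaving out other arrays did. Vehicle replicate 3 was picked by the values of these same genes. Leaving it out therefore lowers all 10 differences from vehicle by construction, and raises their tissue differences. A call made only without it is no support for a change.

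All differences below are log2 differences of group means, tested with limma over all 22523 probes, and a call means an adjusted p under 0.05 (Benjamini-Hochberg). Values after ± are SDs over 3 pups. Levels are compared only within a probe, since different probes do not share a scale. Where the order of the 6 groups is given across tissues, it is that of the deposited scale, on which the median difference of all probes, vehicle frontal lobe minus vehicle total brain, was -0.07.

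None of the 10 genes changed with dose in either tissue at this threshold. In the frontal lobe, however, all 10 had a lower mean at 0.2 mg/kg than in vehicle pups, with differences from -0.04 (Cacna1b) to -0.54 (Cacna1g). Between the tissues of vehicle pups, 6 of the 10 differed, a share close to the 52.7% of all probes called in that contrast: Cacnb1, Cacnb3, Cacnb4 and Cacna2d1 were higher in the day 41 frontal lobe, and Cacna1c and Cacna1b were lower. The members are described by role first and the comparisons after them.

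**Figure D1:**
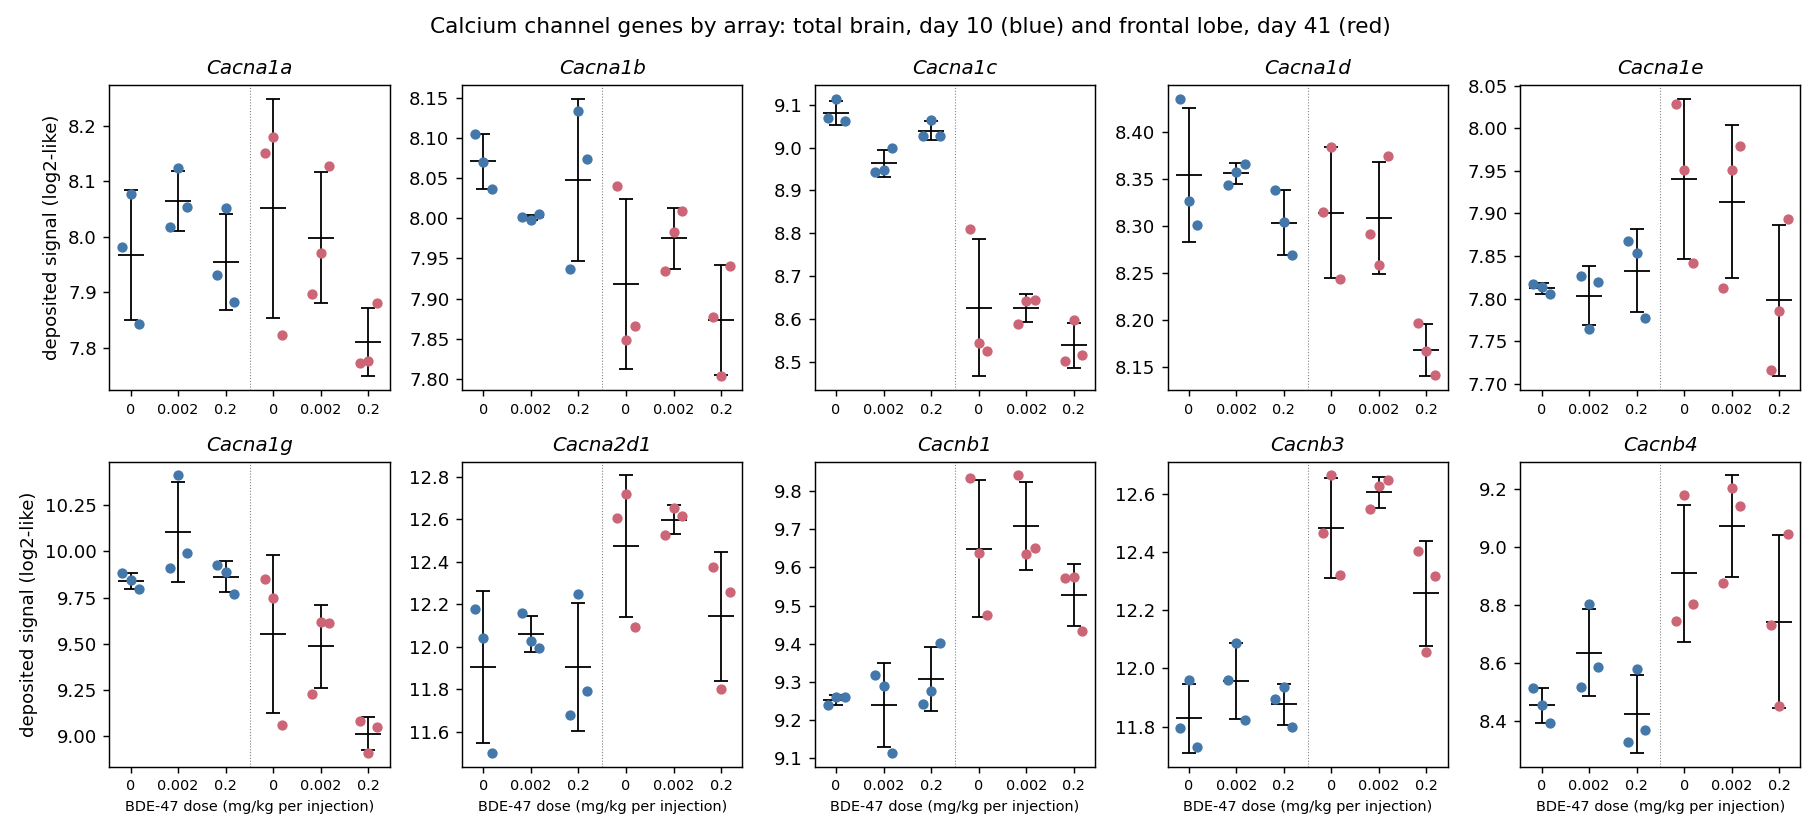
Deposited log2-like signal of each calcium channel probe (vertical axes, 1 panel per gene, each with its own range) against BDE-47 dose in mg/kg per injection, with total brain in blue and frontal lobe in red. Points are arrays, and bars give the mean and SD of 3 pups. Cacnb3 and Cacnb1 were higher in every frontal lobe array than in every total brain array of vehicle pups, Cacna1c was lower, and Cacna1g was lowest at 0.2 mg/kg in the frontal lobe, at 8.91 to 9.08.

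The L-type pore subunit Cacna1c (Cav1.2) read 9.07, 9.11 and 9.06 in vehicle total brain, 8.943, 8.948 and 8.999 at 0.002 mg/kg and 9.03, 9.06 and 9.03 at 0.2 mg/kg. In frontal lobe it read 8.81, 8.54 and 8.52 in vehicle, 8.59, 8.64 and 8.64 at 0.002 mg/kg and 8.50, 8.60 and 8.52 at 0.2 mg/kg. Every total brain array was above every frontal lobe array. The 0.002 mg/kg total brain arrays were all below the vehicle and the 0.2 mg/kg arrays. Cacna1c was lower in vehicle frontal lobe than in vehicle total brain (-0.46, 95% interval -0.58 to -0.33), and was called. In total brain the 0.002 mg/kg group differed from vehicle by -0.12 (-0.18 to -0.06), which did not pass (limma adjusted p = 0.716), and at 0.2 mg/kg the difference was -0.04. In order of the 6 means, total brain groups held the first 3 places, and only the steps from 0.2 to 0.002 mg/kg in total brain and from there to vehicle frontal lobe had values that did not overlap.

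Cacna1d (Cav1.3), the L-type pore subunit that opens at more negative potentials than Cacna1c, read 8.44, 8.33 and 8.30 in vehicle total brain, 8.34, 8.36 and 8.37 at 0.002 mg/kg and 8.34, 8.30 and 8.27 at 0.2 mg/kg. In frontal lobe its values were 8.31, 8.38 and 8.24 in vehicle, 8.29, 8.26 and 8.37 at 0.002 mg/kg and 8.20, 8.17 and 8.14 at 0.2 mg/kg. The 0.2 mg/kg frontal lobe arrays lay below all 15 other arrays. Against vehicle the difference was -0.15 (95% interval -0.25 to -0.05, limma adjusted p = 0.164), and against 0.002 mg/kg it was -0.14 (adjusted p = 0.131), so neither passed. Of the 6 groups in order, the only neighbours without overlap were 0.2 mg/kg total brain and 0.2 mg/kg frontal lobe, the lowest. The tissues' vehicle means differed by -0.04, with a sign that turned to 0.03 after quantile normalization over 18 arrays and to 0.01 after median centring.

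The T-type pore subunit Cacna1g (Cav3.1), known for burst firing in thalamic neurons, had the widest spread of the pore subunits. Its signals in total brain were 9.88, 9.85 and 9.79 in vehicle, 9.91, 10.41 and 9.99 at 0.002 mg/kg and 9.93, 9.89 and 9.77 at 0.2 mg/kg. In frontal lobe they were 9.85, 9.75 and 9.06 in vehicle, 9.23, 9.62 and 9.61 at 0.002 mg/kg and 9.08, 8.91 and 9.05 at 0.2 mg/kg. All 3 high-dose frontal lobe arrays were below the 0.002 mg/kg arrays, while vehicle replicate 3 lay within the high-dose range. The difference from vehicle at 0.2 mg/kg was -0.54 (95% interval -1.01 to -0.07), or 1.45-fold lower if the scale is log2, and did not pass (limma adjusted p = 0.265). Without vehicle replicate 3 it was -0.79 and passed (adjusted p = 0.0233). It did not pass when any other 1 of the 6 arrays was left out, at -0.57 to -0.39 (adjusted p = 0.328 to 0.552), the smallest difference being without vehicle replicate 1. In bulk tissue fewer cells that express a gene and less RNA per cell cannot be told apart. In total brain the 0.002 mg/kg arrays were all above the vehicle arrays, by 0.26 on average (-0.02 to 0.54, adjusted p = 0.733). In order of means the 3 total brain groups came first, and the only neighbours without overlap were 0.002 and 0.2 mg/kg frontal lobe.

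Cacna1a (Cav2.1), the P/Q-type pore subunit of most central synapses, read 7.98, 8.08 and 7.84 in vehicle total brain, 8.02, 8.12 and 8.05 at 0.002 mg/kg and 7.93, 8.05 and 7.88 at 0.2 mg/kg. Its frontal lobe signals were 8.15, 8.18 and 7.82 in vehicle, 7.90, 7.97 and 8.13 at 0.002 mg/kg and 7.77, 7.78 and 7.88 at 0.2 mg/kg. As with Cacna1g, vehicle replicate 3 overlapped the 0.2 mg/kg arrays and the other vehicle arrays did not. The difference from vehicle at 0.2 mg/kg was -0.24 (-0.47 to -0.01, adjusted p = 0.312), and without that array -0.35 (adjusted p = 0.0392). Over the 6 fits with 1 array left out it ran from -0.35 to -0.18, with adjusted p up to 0.620. The 0.2 mg/kg frontal lobe had the lowest mean of the 6 groups, and the step to it from 0.2 mg/kg total brain was the only one between neighbours without overlap.

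The N-type pore subunit Cacna1b (Cav2.2) read 8.11, 8.07 and 8.04 in vehicle total brain, 8.00, 8.00 and 8.01 at 0.002 mg/kg and 7.94, 8.13 and 8.07 at 0.2 mg/kg. In frontal lobe it read 8.04, 7.85 and 7.87, then 7.93, 7.98 and 8.01, then 7.88, 7.80 and 7.94, in the same order of doses. No neighbours in the order of group means were without overlap. The 0.002 mg/kg total brain arrays lay below the vehicle arrays (-0.07), without passing (adjusted p = 0.766). Frontal lobe was lower than total brain in vehicle pups (-0.15, limma adjusted p = 0.0303), with overlapping values. That call was lost after quantile normalization (-0.10, adjusted p = 0.263). It was also lost without total brain vehicle replicate 1 (-0.14) or 2 (-0.15) and without frontal lobe vehicle replicate 2 (-0.12) or 3 (-0.13).

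Cacna1e (Cav2.3), the R-type pore subunit, stayed between 7.72 and 8.03 on all 18 arrays. Its means in total brain were 7.81 ± 0.006, 7.80 ± 0.034 and 7.83 ± 0.049 from vehicle to 0.2 mg/kg. In frontal lobe they were 7.94 ± 0.094, 7.91 ± 0.090 and 7.80 ± 0.089. All neighbours in this order of 6 groups overlapped. The high-dose difference from vehicle in frontal lobe was -0.14 (-0.30 to 0.01, adjusted p = 0.381). Vehicle frontal lobe exceeded vehicle total brain by 0.13 without passing (adjusted p = 0.0586), and passed after quantile normalization at 0.18 (adjusted p = 0.0246).

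Cacna2d1, the alpha2delta-1 subunit that binds gabapentin and pregabalin, read 12.18, 12.04 and 11.50 in vehicle total brain, 12.16, 12.03 and 12.00 at 0.002 mg/kg and 11.68, 12.25 and 11.79 at 0.2 mg/kg. Its frontal lobe values were 12.61, 12.72 and 12.09 in vehicle, 12.53, 12.65 and 12.62 at 0.002 mg/kg and 12.37, 11.80 and 12.26 at 0.2 mg/kg. The high-dose frontal lobe arrays were below all 0.002 mg/kg arrays and overlapped the vehicle arrays only through vehicle replicate 3. The 0.2 mg/kg frontal lobe differed from vehicle by -0.33 (-0.77 to 0.11, adjusted p = 0.482) and from 0.002 mg/kg by -0.46 (-0.89 to -0.02, adjusted p = 0.246). The first of these moved to -0.52 without vehicle replicate 3, to -0.21 without vehicle replicate 2 and to -0.16 without 0.2 mg/kg replicate 2, and passed in none. In vehicle pups frontal lobe was higher than total brain by 0.57 (0.13 to 1.01, adjusted p = 0.0329), with overlapping values. That call was lost without total brain vehicle replicate 3 (0.37), frontal lobe vehicle replicate 1 (0.50) or frontal lobe vehicle replicate 2 (0.44). All neighbours in the order of its 6 means overlapped, frontal lobe groups being the first 3.

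Among the beta subunits, which bind the pore subunit inside the cell, Cacnb3 read 11.79, 11.96 and 11.73 in vehicle total brain, 11.96, 12.09 and 11.82 at 0.002 mg/kg and 11.89, 11.94 and 11.80 at 0.2 mg/kg. In frontal lobe it read 12.47, 12.66 and 12.32 in vehicle, 12.55, 12.63 and 12.65 at 0.002 mg/kg and 12.40, 12.06 and 12.32 at 0.2 mg/kg. The vehicle arrays of the tissues were fully apart. Frontal lobe was higher by 0.66 (0.44 to 0.87), or 1.58-fold if the scale is log2, and was called. The 0.2 mg/kg frontal lobe lay below every 0.002 mg/kg array, with a difference of -0.35 (95% interval -0.60 to -0.10, limma adjusted p = 0.128), and overlapped vehicle (-0.22, -0.47 to 0.02, adjusted p = 0.386). Neighbouring groups in its order all overlapped.

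Cacnb1, the beta subunit best known from the skeletal muscle channel and also made in brain, read 9.24, 9.26 and 9.26 in vehicle total brain and 9.84, 9.64 and 9.47 in vehicle frontal lobe. The difference of 0.40 (0.22 to 0.58) was called, with values apart. Its 0.2 mg/kg frontal lobe arrays, at 9.57, 9.58 and 9.43, were below the 0.002 mg/kg arrays, at 9.84, 9.63 and 9.65, and overlapped vehicle. The respective differences were -0.18 (adjusted p = 0.375) and -0.12 (adjusted p = 0.629). Its lowest frontal lobe group, 0.2 mg/kg, and its highest total brain group, 0.2 mg/kg at 9.31 ± 0.084, were the only neighbours without overlap.

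Cacnb4, the beta subunit whose loss causes the ataxia of the lethargic mouse, read 8.52, 8.45 and 8.39 in vehicle total brain and 8.52, 8.80 and 8.59 at 0.002 mg/kg. These values only just did not overlap (8.515 against 8.516 at the nearest), and the difference was 0.18 (-0.03 to 0.39, limma adjusted p = 0.736). At 0.2 mg/kg the mean was back at 8.43 ± 0.135. In frontal lobe the means were 8.91 ± 0.237, 9.07 ± 0.174 and 8.74 ± 0.297 from vehicle to 0.2 mg/kg, with overlap at every step. Vehicle frontal lobe exceeded vehicle total brain by 0.45 (0.14 to 0.77, adjusted p = 0.0195), a call that was lost without total brain vehicle replicate 3 (0.42) or frontal lobe vehicle replicate 2 (0.32).

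In frontal lobe, where the contrast of the high dose against vehicle asks what it did at the later age, 0 of the 10 genes passed (limma), and 3 had an unadjusted p under 0.05. Over the whole array 1.14% of probes passed and 3375 of 22523 had an unadjusted p under 0.05. All 10 genes had differences below 0, with a median of -0.16, whereas 48.2% of all probes were below 0 and their median was 0.0023. Cacna1d was the 1 gene of 10 whose 3 values all lay below those of vehicle, against 8.76% of all probes. Of the 11261 probes above the median level 1265 lay below in this way, and 254 passed in the same fit. Without vehicle replicate 3, which was picked by these genes' own values, 2 genes passed, Cacna1g and Cacna1a. The number of probes passing over the array rose from 257 to 1036. The other differences were then -0.52 for Cacna2d1, -0.31 for Cacnb3, -0.22 for Cacnb4, -0.21 for Cacnb1, -0.19 for Cacna1e, -0.18 for Cacna1d, -0.14 for Cacna1c and -0.07 for Cacna1b. With any other 1 array left out none of the 10 passed. Cacnb1 came to -0.03, Cacnb4 to -0.02 and Cacnb3 to -0.12 at the nearest to 0, and Cacna1b and Cacna1c turned just above 0 without vehicle replicate 1.

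**Figure D2:**
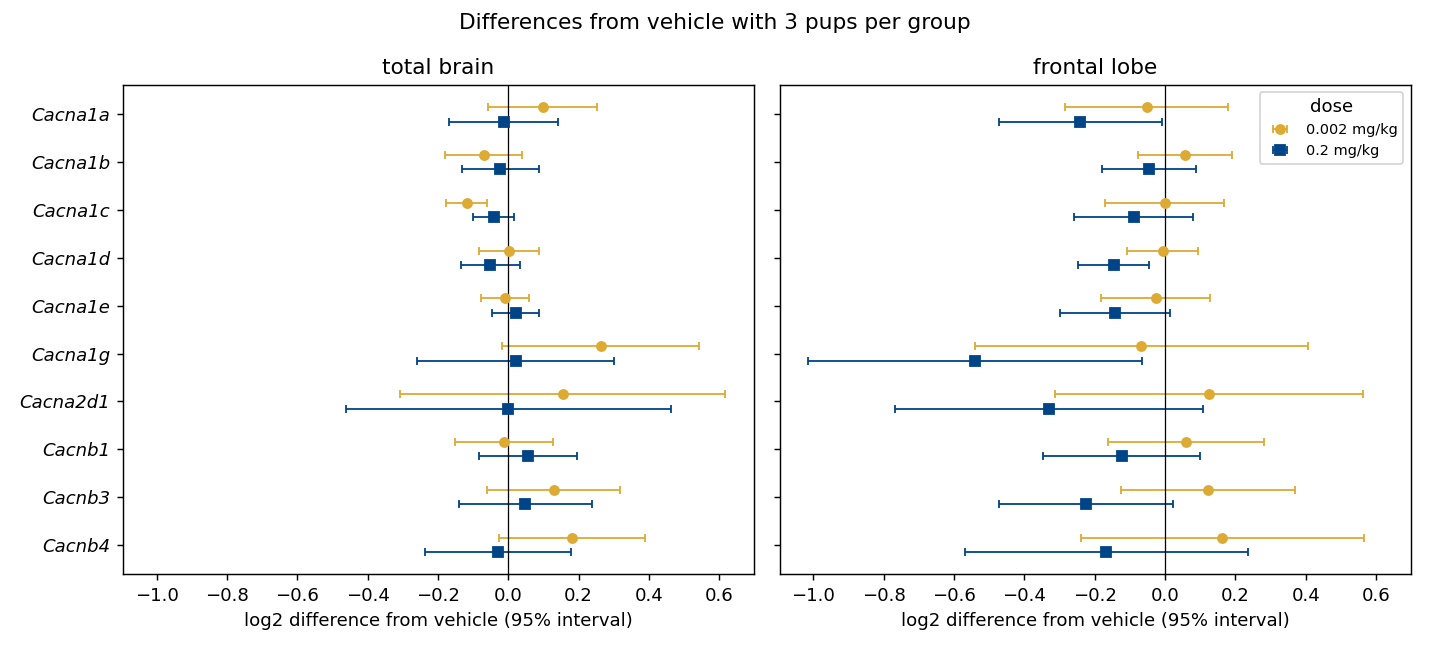
Log2 difference from vehicle (horizontal axis) of each calcium channel gene in total brain (left) and frontal lobe (right) at 0.002 mg/kg (yellow circles) and 0.2 mg/kg (blue squares), with 95% intervals from limma and 3 pups per group. All 10 frontal lobe differences at 0.2 mg/kg are below 0, from -0.54 for Cacna1g to -0.04 for Cacna1b, and most intervals include 0.

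Between the doses in frontal lobe (0.2 against 0.002 mg/kg) all 10 differences were again below 0, with a median of -0.19 against 0.0001 over all probes. This comparison shares its 0.2 mg/kg arrays with the previous one. Again 0 of 10 passed (limma), against 2.87% of probes, and 3 had an unadjusted p under 0.05, against 4218 probes in all. Cacna1a, Cacna1d, Cacna1g, Cacna2d1, Cacnb1 and Cacnb3 were lower on all 3 high-dose arrays than on all 0.002 mg/kg arrays, 6 of 10 genes against 12.9% of all probes. The shares were larger away from the floor. Of the 11261 probes above the median level 2176 were lower in this way. In the same fit 633 of them passed and 3740 had an unadjusted p under 0.05. The remaining differences were -0.33 for Cacnb4, -0.12 for Cacna1e, -0.10 for Cacna1b and -0.09 for Cacna1c.

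At 0.002 mg/kg in the frontal lobe the genes differed from vehicle by -0.07 (Cacna1g) to 0.16 (Cacnb4), with a median of 0.03. Of the 10 genes, 5 were below 0 and none had values wholly below vehicle, a state of 5.70% of all probes. By limma 0 of 10 and 0% of all probes passed, 0 of 10 had an unadjusted p under 0.05, and 1151 probes of the array did. The smallest adjusted p among the 10 was 0.924. Without vehicle replicate 3 the differences ran from -0.31 (Cacna1g) to 0.11 (Cacnb4), 7 of 10 were below 0, and the smallest adjusted p was 0.686.

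In total brain, which asks for effects at day 10, neither dose moved a calcium channel gene past the threshold, and 0% of all probes passed at 0.002 mg/kg, at 0.2 mg/kg or between the doses (limma). Unadjusted p values under 0.05 were found for 1468, 972 and 1321 probes in these 3 comparisons, of which 1, 0 and 2 belonged to the calcium channel genes. At 0.002 mg/kg the values of Cacna1c and Cacna1b lay wholly below vehicle and those of Cacnb4 and Cacna1g wholly above. Cacnb4 did so only barely, with 8.516 at 0.002 mg/kg against 8.515 in vehicle at the nearest. That is 2 of 10 in each direction, against 6.63% of all probes lower and 6.34% higher. At 0.2 mg/kg the differences from vehicle ran from -0.05 (Cacna1d) to 0.06 (Cacnb1), with a median of -0.01, and no gene was wholly below vehicle, against 5.25% of probes. Between 0.2 and 0.002 mg/kg, Cacna1c was wholly higher by 0.08 (adjusted p = 0.780) and Cacna1d wholly lower (-0.05, adjusted p = 0.798). The shares of all probes were 5.35% and 5.60%. Cacna1g and Cacnb4 differed by -0.24 and -0.21 in that comparison, without passing.

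The difference between the tissues' responses was tested as an interaction over all 18 arrays. At 0.2 mg/kg 0 of 10 genes passed, against 0.204% of probes, and 1 gene had an unadjusted p under 0.05, against 2703 probes (limma). All 10 interaction terms were below 0, with a median of -0.17 against 0.0020 over all probes. These terms share their frontal lobe arrays with the comparison of 0.2 mg/kg with vehicle. The total brain differences they subtract ran only from -0.05 to 0.06, so the common sign is not a separate result. With 1 array left out, the terms of Cacna1b, Cacna1c and Cacnb4 turned above 0 in some fits. Cacna1g had the lowest, -0.56 (-1.10 to -0.02, adjusted p = 0.396), and Cacna1b the highest, -0.02. Without frontal lobe vehicle replicate 3 the Cacna1g term was -0.81 and passed (adjusted p = 0.0487). Cacnb3 had a term of -0.27 (adjusted p = 0.470) and Cacna1e one of -0.16 (adjusted p = 0.417). At 0.002 mg/kg the terms ran from -0.33 (Cacna1g) to 0.13 (Cacna1b), with 0 of 10 genes and 0% of probes past the threshold. At an unadjusted p under 0.05 there were 0 of these genes and 1108 probes.

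Cell type markers also differed between these frontal lobe arrays. Of 10 neuronal markers, 6 were below 0 at 0.2 mg/kg against vehicle, with a median of -0.21, and Slc17a7 fell by 0.78 (limma adjusted p = 0.0179). Their mean level was 11.69 to 11.75 on the vehicle arrays, 11.79 to 11.88 at 0.002 mg/kg and 11.28 to 11.58 at 0.2 mg/kg. The 10 calcium channel genes had mean levels of 9.21 to 9.49, 9.35 to 9.48 and 9.09 to 9.25 on the same arrays. All 7 markers of meninges and fibroblasts were above 0 at 0.2 mg/kg, Igfbp2 passing with a rise of 0.88, and their mean level was 10.08 to 10.57 in vehicle, 10.13 to 10.24 at 0.002 mg/kg and 10.55 to 10.97 at 0.2 mg/kg. The 3 measured cortical markers, which include Slc17a7, had mean levels of 10.55 to 10.92 in vehicle, 10.70 to 10.77 at 0.002 mg/kg and 10.07 to 10.45 at 0.2 mg/kg. Of these 3 genes 2 were below 0 at 0.2 mg/kg against vehicle and 1 was above (0.13). Above 0 at 0.2 mg/kg were 4 of 5 microglial, 4 of 5 oligodendrocyte and 3 of 5 astrocyte markers, with medians of 0.14, 0.24 and 0.17, and below 0 were 3 of 3 endothelial markers, with a median of -0.10. None of these 4 lists had a member that passed (smallest adjusted p = 0.135), and 5 of their 18 genes had an unadjusted p under 0.05. On vehicle replicate 3, where all 10 calcium channel genes were low, the mean of the neuronal markers was 0.03 above its average over the frontal lobe arrays and that of the meningeal and fibroblast markers was at -0.37. There the astrocyte mean was the lowest of the 9 frontal lobe arrays (-0.29) and the cortical mean the highest (0.35). Oligodendrocyte, hindbrain, endothelial and microglial means were at -0.13, -0.05, -0.02 and 0.002. The part of these markers in the calcium channel values was not tested.

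**Figure D3:**
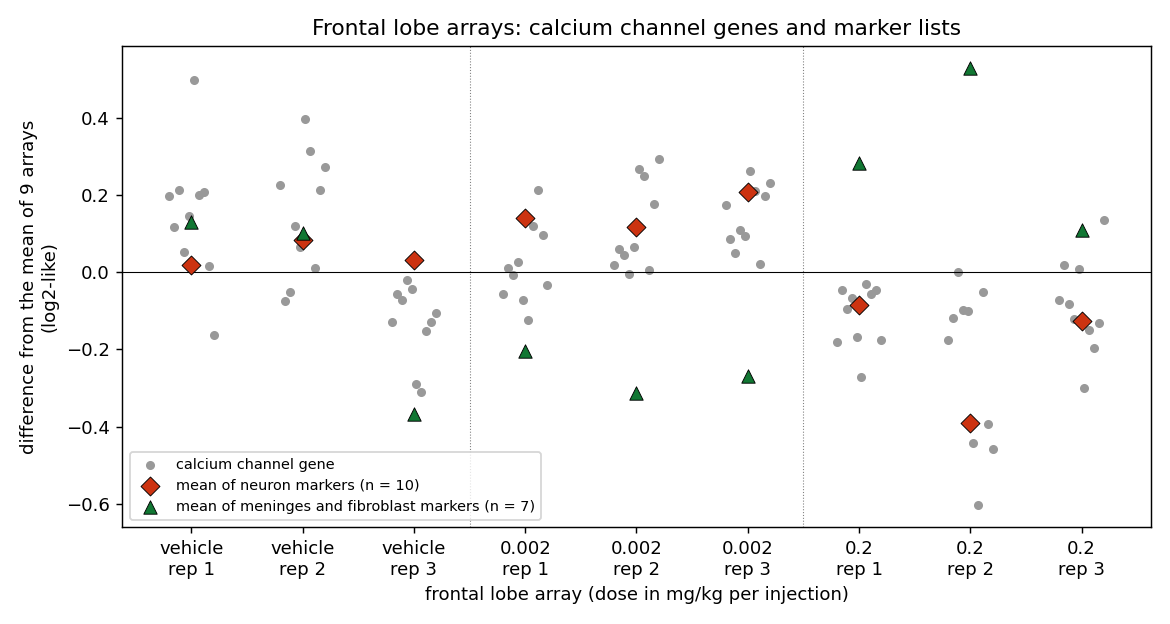
Difference of each frontal lobe array from the mean of the 9 frontal lobe arrays (vertical axis, log2-like) for the 10 calcium channel genes (grey points), the mean of 10 neuronal markers (red diamonds) and the mean of 7 meningeal and fibroblast markers (green triangles), by dose and replicate. The calcium channel genes were all below the mean on vehicle replicate 3 and on 0.2 mg/kg replicate 1, and the neuronal mean was lowest on 0.2 mg/kg replicate 2, at -0.39.

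The tissue contrast of vehicle pups sets the day 41 frontal lobe against the day 10 total brain. Of the 10 genes 6 passed (limma), against 52.7% of all probes. By direction, Cacna2d1, Cacnb1, Cacnb3 and Cacnb4 were higher in frontal lobe, 4 of 10 against 9.01% of probes, and Cacna1b and Cacna1c were lower, 2 of 10 against 43.7%. Away from the floor the shares differed: of the 11261 probes above the median level, 1972 were called higher and 3773 lower in the same fit. The whole-array count and split depended on scaling. As deposited 11866 of 22523 probes were called, 17.1% of them higher in frontal lobe. After median centring 5828 were called, 39.6% of them higher, and after quantile normalization 5226, 47.0% of them higher. After quantile normalization the 4 auxiliary subunits and Cacna1c kept direction and call, at 0.61, 0.48, 0.70, 0.53 and -0.37 in the order named, Cacna1b lost its call and Cacna1e gained one. Cacna1c, Cacnb1 and Cacnb3 kept their call whichever 1 of the 6 vehicle arrays was left out. Cacna1g (-0.29, -0.67 to 0.09, adjusted p = 0.181) and Cacna1a (0.08, -0.11 to 0.28, adjusted p = 0.435) did not pass, and without frontal lobe vehicle replicate 3 Cacna1a did (0.20, adjusted p = 0.0460).

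Markers of the cell types differed between the same vehicle groups, in a contrast where 52.7% of all probes passed as deposited. All 7 markers of meninges and fibroblasts and all 6 of cerebellum and hindbrain were lower in frontal lobe, with medians of -0.83 and -0.54, and 6 and 5 of them passed. Of 5 oligodendrocyte markers 4 were higher, with a median of 0.69, and 3 passed. The 10 neuronal markers ran from -2.41 to 1.71, 4 passing as higher and 3 as lower. All 3 cortical markers were above 0, 2 passing, as were 3 of 5 astrocyte and 3 of 5 microglial markers, with 2 and 1 passing, and 0 of 3 endothelial markers passed. After quantile normalization the medians were -0.80, -0.47 and 0.77 for the meningeal, hindbrain and oligodendrocyte lists. In that setting 4 of 7, 4 of 6 and 4 of 5 of these passed, against 5226 of 22523 probes. Of the cortical and endothelial markers 1 of 3 passed in each list, and the neuronal, astrocyte and microglial counts stayed the same. Their part in the differences of the calcium channel genes was not tested.

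**Figure D4:**
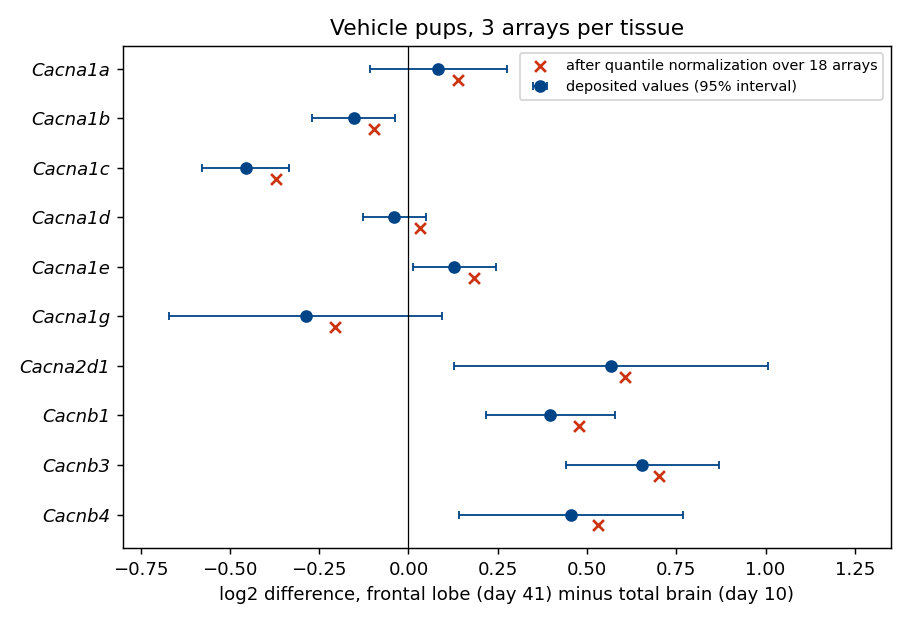
Log2 difference between vehicle frontal lobe at day 41 and vehicle total brain at day 10 (horizontal axis) for each calcium channel gene, with 95% intervals from limma on the deposited values (blue circles) and the value after quantile normalization over 18 arrays (red crosses). The alpha2delta and beta subunits lie at 0.40 to 0.66 and Cacna1c at -0.46.

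Promoters of Cacna1c and Cacnb3 are shown because these genes differed in opposite directions between the tissues under every scaling tried. RefSeq (GRCr8) gave promoter sequence, from 250 bases before to 50 bases after a transcript start, for 7 of the 10 genes. Letters searched on both strands were the GC box GGGCGG, the TATA box TATAAA, the cAMP response element TGACGTCA and the CCAAT box CCAAT, and matches are in capitals. The Cacna1c window is chr4:154051699-154051998 on the minus strand and the Cacnb3 window chr7:131666301-131666600 on the plus strand, both 5′ to 3′.
Cacna1c: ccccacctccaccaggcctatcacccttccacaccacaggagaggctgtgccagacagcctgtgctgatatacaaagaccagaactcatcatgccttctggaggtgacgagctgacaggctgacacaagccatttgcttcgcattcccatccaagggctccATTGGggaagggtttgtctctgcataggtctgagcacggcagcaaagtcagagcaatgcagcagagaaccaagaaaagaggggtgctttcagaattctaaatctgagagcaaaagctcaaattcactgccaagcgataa
Cacnb3: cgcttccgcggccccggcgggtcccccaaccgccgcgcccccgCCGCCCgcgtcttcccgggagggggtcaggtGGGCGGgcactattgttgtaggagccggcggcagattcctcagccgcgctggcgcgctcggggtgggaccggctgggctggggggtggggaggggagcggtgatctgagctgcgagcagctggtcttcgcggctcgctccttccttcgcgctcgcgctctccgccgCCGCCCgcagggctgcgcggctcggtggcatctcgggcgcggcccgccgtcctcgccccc
The Cacnb3 window had 77.7% GC, 44 CG dinucleotides and 3 GC boxes. The Cacna1c window had 51.7% GC, 4 CG dinucleotides, no GC box and 1 CCAAT box. The other windows did not divide by tissue direction. Cacna1b, called lower in frontal lobe as deposited, had 72% GC and 3 GC boxes, and Cacna2d1, called higher, had windows of 73% to 78.3% GC. Of the genes not called as deposited, Cacna1d had 88.7% GC and 10 GC boxes, Cacna1a 76% and 1, and Cacna1e 53.7% and 0. Over 33469 RefSeq promoters of this length the medians were 51.7% GC and 7 CG dinucleotides, 33.1% held a GC box and 37.5% a CCAAT box. Neither window held a TATA box, found in 14.2% of promoters, or a cAMP response element, found in 1.83%. The arrays do not show which transcript start a tissue used, and these matches are a description only.

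Other genes of the channel family were taken from a list of 16, of which 13 were measured. None passed in any dose comparison. In frontal lobe at 0.2 mg/kg 10 of 13 were below 0 against vehicle, with a median of -0.06. The lowest adjusted p values there belonged to Cacna2d3, the alpha2delta-3 subunit (-0.24, adjusted p = 0.0746), Cacng2, or stargazin, which escorts AMPA receptors (-0.39, adjusted p = 0.109), and Cacng4, its relative (-0.17, adjusted p = 0.164). Between vehicle tissues 6 of the 13 passed on the deposited scale, against 52.7% of all probes. Cacng3, Cacng2, Cacng8 and Cacna2d3 were higher in frontal lobe, by 1.19, 0.60, 0.21 and 0.16. Cacng4 and Cacng6 were lower (-0.51 and -0.12). After quantile normalization Cacng6 no longer passed (-0.03, limma adjusted p = 0.552) and the other 5 did, against 5226 of 22523 probes.

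Channel partners and regulators came from a list of 44 genes, 38 of them measured. At 0.2 mg/kg in frontal lobe 30 of 38 were below 0 against vehicle, with a median of -0.09, and 1 passed, against 1.14% of all probes. Prkaca, a catalytic subunit of protein kinase A, which phosphorylates L-type channels, fell from 12.25 ± 0.056 to 11.69 ± 0.164 (limma adjusted p = 0.0254). Against 0.002 mg/kg 5 of 38 fell, where 2.87% of all probes passed, and 633 of the 11261 above the median level. The 5 were Prkaca (by 0.53), the active zone genes Pclo (0.63) and Rims1 (1.17), and the release machinery genes Syt1 (0.67) and Snap25 (0.73). Over all probes the 646 calls of this comparison became 37, 28 or 65 without 0.002 mg/kg replicate 1, 2 or 3. They became 216 to 823 without a 0.2 mg/kg array. Whether the calls of single partners or markers hold with 1 array left out is not shown here. Syt1 and Snap25 are also on the list of neuronal markers above. None passed at 0.002 mg/kg in frontal lobe or in any total brain comparison. In the tissue contrast 25 of 38 passed, against 52.7% of all probes. Of these 19 were higher in frontal lobe and 6 lower, against 9.01% and 43.7% of probes. Among the 11261 probes above the median level 1972 were higher and 3773 lower. After quantile normalization 20 and 3 passed, against 2458 and 2768 of 22523 probes. Cabp1, a calcium-binding protein that modulates channel inactivation, was higher by 2.05, and Rem2, a small GTPase that inhibits channels by binding beta subunits, was lower (-0.52).

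Likeness between probes was measured as Pearson's r over the 18 arrays after each tissue's mean was subtracted, which leaves dose, pup and array differences in it, and is given without a test. Among the 10 genes themselves Cacna1a and Cacna1g were most alike (r = 0.88), followed by Cacna2d1 and Cacnb3 (0.80) and by Cacnb3 and Cacnb4 (0.78), and Cacna1c and Cacnb4 were least alike (-0.17). Of all named probes above the median level, those most like Cacna1g were Mapk8ip3, a kinesin adaptor in axons (0.95), Plekhm1 (0.95) and Lrrfip1 (0.94). Plekhm1 was also near the top for Cacna1a (0.91), beside Drosha, the nuclease that processes primary microRNAs (0.91), and Abca2 (0.90). For Cacna2d1 the most alike were Ntrk3, the neurotrophin-3 receptor (0.95), Gnao1, a G protein alpha subunit abundant in brain (0.92), and Zfp689 (0.91).

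The beta subunits had other nearest probes. Cacnb3 was most like Spock2 (0.93), Zbtb7a (0.91) and the calcium-dependent phosphodiesterase Pde1b (0.90). Cacnb4 was most like Ppp2ca, the catalytic subunit of protein phosphatase 2A (0.93), Caap1 (0.92) and Cul5 (0.91). Cacnb1 reached lower values, with Ssrp1 (0.79), the pannexin gene Panx2 (0.78) and Srpk3 (0.77). Ssrp1, a chromatin factor, also led for Cacna1c (0.81), followed by Ptk2b and Ahsg (both 0.77). The L-type gene Cacna1d was most like Zbtb22 (0.89), Rps6ka4 (0.86) and Cbll1 (0.86). Cacna1e was most like the receptor kinase gene Tyro3 (0.89), then Celf5 (0.79) and Gga1 (0.78). For Cacna1b the most alike was the T-type pore subunit Cacna1h (0.84), then Shpk (0.81) and the adhesion gene Ncam1 (0.74).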

How the data were processed

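Labelled cRNA from column-purified RNA of 18 pups was hybridized to Illumina arrays, per the labels' protocols. The authors made the deposited log2-like values in lumi, as the submitters' processing notes state. Not given in the sources used here are its version, the background correction, the transformation (log2 or variance-stabilized), the normalization, and any chip or batch. In the main fits values were used as deposited, without detection p-values or filters. The number of arrays limits the precision.

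Probes were named from the platform annotation, in which 13793 of 22523 probes had 1 symbol and 8730 none. Linear models were fitted in limma 3.58.1 (R 4.3.3, lmFit and eBayes), within a tissue (9 arrays) for doses and on 18 arrays for interactions and the tissue contrast, with Benjamini-Hochberg adjustment over all probes. Tables and figures were made in Python 3.11.15. The fits were tested on simulated data.

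The members and lists were chosen with earlier results of these data known. All 10 members were named, with listed family genes, listed partners that passed or ranked among the 3 smallest unadjusted p, and the 3 most alike probes per member.

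Same-numbered pups come from different litters. Their deviations from group means correlated at 0.16 to 0.44 in all 3 pairs of the 0.002 and 0.2 mg/kg total brain groups. Between the same doses in frontal lobe all 3 correlations were also positive, at 0.04 to 0.11. In the other pairs of groups they ran from -0.29 to 0.27. Pairing was judged from these data alone, and the main fits held no replicate block. The settings varied were median centring, quantile normalization, a filter on dim probes, eBayes with trend and robust options, other sets of arrays, the replicate block and leaving out each array.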

Additional observations from a re-analysis of the deposited data

How the results depend on the processing

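The number of calcium channel genes passing was 0 in all dose comparisons and interactions under every alternative that kept all arrays. A member below the median level was not tested in the setting of probes above that level. In the tissue contrast it was 6, or 7 with trend and robust options, where Cacna1e passed too, and median centring, like quantile normalization, called Cacna1e and not Cacna1b. Leaving out 1 array gave 0 to 2 in frontal lobe at 0.2 mg/kg against vehicle (2 without vehicle replicate 3), 0 to 1 in the interaction at 0.2 mg/kg (1 without the same array) and 3 to 7 in the tissue contrast (3 without frontal lobe vehicle replicate 2, 7 without replicate 3). The cause was not tested.

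Counts over all probes moved more. With trend and robust options they were 3, 2 and 2 in total brain (0.002 mg/kg, 0.2 mg/kg and between doses), 487 and 1211 in frontal lobe (0.2 mg/kg against vehicle and against 0.002 mg/kg) and 87 in the 0.2 mg/kg interaction. The fit of 18 arrays gave 1 at 0.002 mg/kg in total brain and 633 and 1122 in frontal lobe, and the 6 arrays compared gave 5 for 0.2 mg/kg against vehicle in frontal lobe. The probes above the median level, with fewer probes tested, gave 1 at 0.002 mg/kg in total brain, 562 and 1177 in frontal lobe, 102 in the 0.2 mg/kg interaction and 5438 in the tissue contrast, which had 5828 after median centring and 5226 after quantile normalization. The replicate block gave 43 and 65 in frontal lobe, left 0 between the total brain doses and changed no call of a calcium channel gene. Leaving out 1 array gave 0 to 1 in each total brain comparison and in the 0.002 mg/kg interaction. It gave 27 (without vehicle replicate 2) to 1036 for 0.2 mg/kg against vehicle in frontal lobe, 28 (without 0.002 mg/kg replicate 2) to 823 (without 0.2 mg/kg replicate 3) between doses, and 14 (without total brain 0.2 mg/kg replicate 1) to 370 (without frontal lobe vehicle replicate 3) in the 0.2 mg/kg interaction.

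Some signs turned. In the tissue contrast Cacna1d was 0.0317 after quantile normalization, 0.0111 after centring and -0.0745 to 0.0004 with 1 array left out. With 1 array left out, Cacna1b ranged from -0.0799 to 0.0160 and Cacna1c from -0.139 to 0.0038 in frontal lobe at 0.2 mg/kg, Cacna1b from -0.0776 to 0.0391, Cacna1c from -0.0973 to 0.0457 and Cacnb4 from -0.289 to 0.0082 in the 0.2 mg/kg interaction, Cacna2d1 from -0.0473 to 0.29 in total brain at 0.002 mg/kg, and Cacna1g from -0.31 to 0.0814 in frontal lobe at 0.002 mg/kg.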
